A study of Mus musculus with 20 samples.

Results

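The genes described here encode hormones and growth factor regulators that the liver secretes into blood. They are Enho (the precursor of adropin), Fgf21, Gdf15, Angptl4, Angptl8, Igf1, Igfbp1, Igfbp2 and Fetub (fetuin-B). The rows of the 9 genes were taken by symbol from a table of 53028 genes, and all 9 were found. Enho was listed because its level fell with the SNORA73 LNA in these same libraries. Its values between the LNA groups are therefore given as a description, with no test. Livers came from male C57BL/6J mice on chow that received 3 intraperitoneal injections, every other day at 3 mg/kg, of a locked nucleic acid (LNA) antisense oligonucleotide. Mice 1, 2, 3, 8 and 9 received an LNA against GFP, the control, and mice 4, 6, 10, 11 and 12 an LNA against SNORA73, a small nucleolar RNA of the H/ACA box class, whose vertebrate and yeast forms act in the processing of precursor ribosomal RNA rather than in its modification. The labels spell the target Snora37, whereas the series' design text spells it SNORA73. The mice were 8 weeks old by the design text and 10 weeks old by the description of liver polysomes, and which of the SNORA73 LNAs was given is not named for these livers. By the same description of liver polysomes, mice of both groups received cycloheximide by tail vein shortly before they were killed. Total RNA was taken from the liver lysate, and polysome RNA from the gradient fractions in which messenger RNA carries several ribosomes. Each of the 10 mice gave 1 library of each, 20 in all.

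Hepatokines carry information on the fed or stressed state of the liver to other tissues. In the fed state insulin raises Angptl8 and silences Igfbp1, whose product binds and holds insulin-like growth factor 1. Fasting, acting through the nuclear receptor PPARα, raises Fgf21 and Angptl4, while injury and the integrated stress response raise Gdf15. Growth hormone acting on hepatocytes maintains Igf1, the source of most circulating insulin-like growth factor 1. Adropin is a small secreted peptide that varies with dietary fat and sugar.

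Total RNA libraries held 24098067 to 42023390 estimated counts in the GFP group and 20005389 to 29887649 in the SNORA73 group. Polysome libraries held 17751846 to 33824659 and 14852951 to 24905687. The library of mouse 9 lay 0.401 log2 units (root mean square over genes) from the mean of the other GFP mice in total RNA and that of mouse 10 lay 0.482 from the other SNORA73 mice. The other total RNA libraries lay 0.225 to 0.324 from theirs. Mice 6, 9, 10 and 12 were nearer to the mean of the opposite group than to that of their own (0.358 for mouse 9). In polysome RNA mouse 11 was farthest from its group, at 0.513, ahead of mouse 10 at 0.494 and mouse 9 at 0.434. In the study a sample was set aside in each group, unnamed, for failing to cluster with the rest. All results below use the 10 mice, and values without mice 9 and 10, which leaves 4 per group, are given beside those that change. Leaving out mice for where they cluster favours a separation of the groups. The knockdown could not be read here, since Snora73a had 0 to 2 counts and Snora73b 0 to 4 in any library prepared from polyadenylated RNA. Albumin and the other hepatocyte markers were expressed throughout, with all 6 listed markers above 3 counts in each library. Their summed level in total RNA was 36893 to 63757 CPM (the count scaled to the size of its library, with factors from the trimmed mean of M values) in the GFP group, with mouse 9 lowest. In the SNORA73 group it was 40168 to 65467, with mouse 10 lowest.

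Between the LNA groups, none of the 7 testable members besides Enho passed a false discovery rate (FDR) of 0.05 by edgeR's quasi-likelihood test, in total or in polysome RNA. Over all genes 0.0303% passed in total RNA (4 of 13195) and 0.0153% in polysome RNA (2 of 13060). The lowest member FDR, that of Igfbp1, stood at 0.505 for total RNA and 0.269 for polysome RNA. At an unadjusted p below 0.05 there was 1 member in total RNA and 2 in polysome RNA, against 1141 and 1755 genes. Limma-voom also called 0 of the 7 in either RNA. DESeq2 called 0 of the 6 members it gave an adjusted p in total RNA (none for Gdf15) and 0 of 5 in polysome RNA (none for Gdf15 and Angptl8). Without mice 9 and 10, 0 of 7 members passed, at a background of 0.745% of genes in total RNA (0.584% higher, 0.161% lower) and 0.242% in polysome RNA (0.211% higher, 0.0312% lower). No member had groups without overlap over the 10 mice, where 1.84% of genes in total RNA and 3.23% in polysome RNA did.

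**Figure D1:**
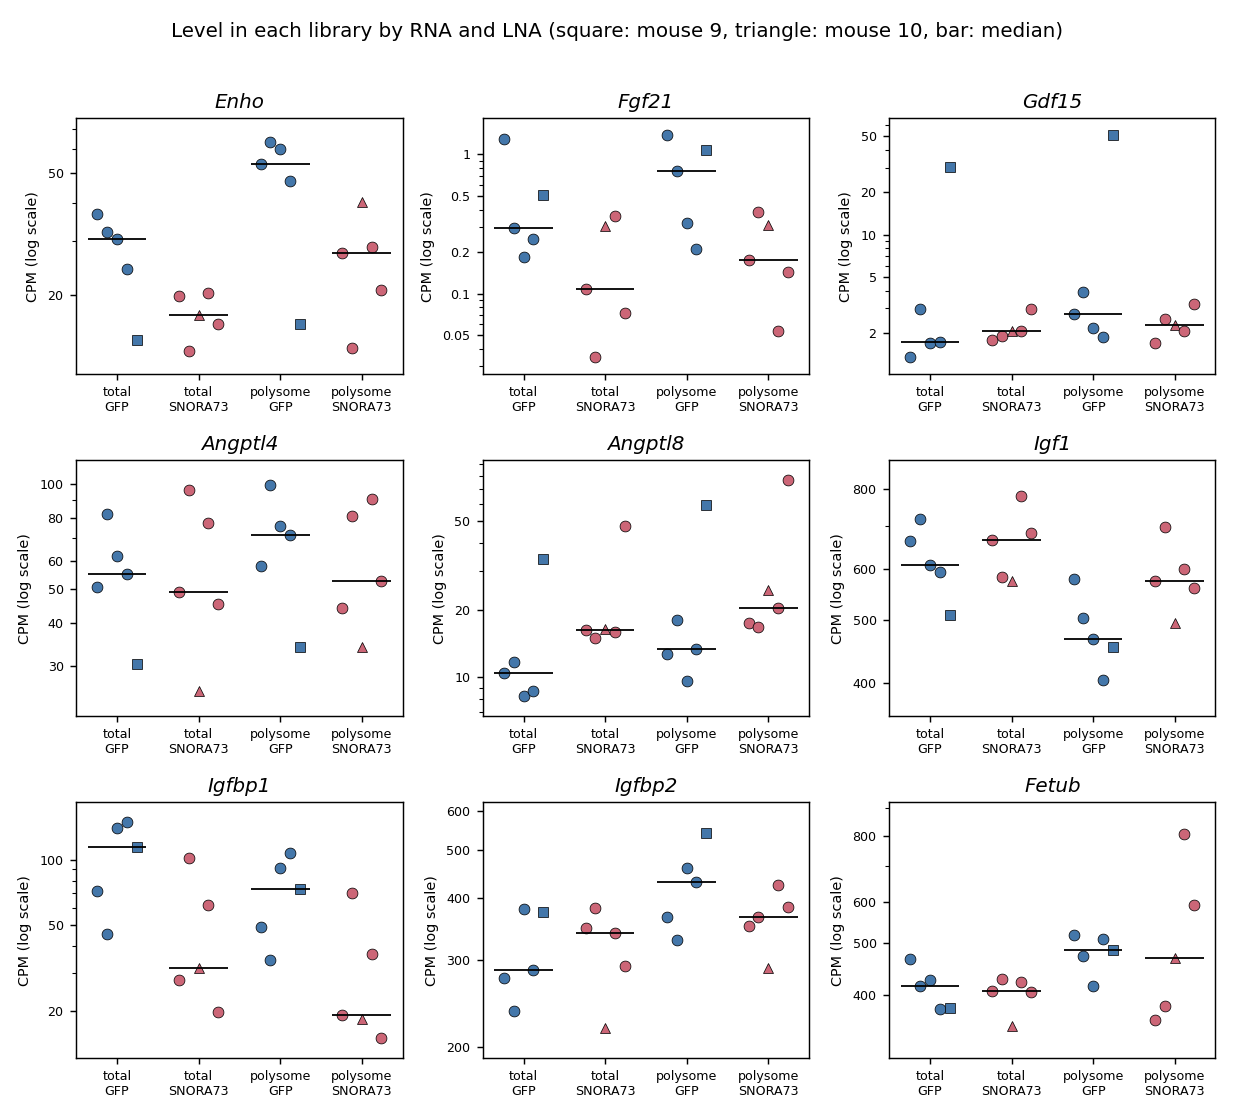
Level of each hormone gene in CPM (vertical axes, log scale) in every library, by RNA and LNA, with the median of each group as a bar. Mouse 9 (square) and mouse 10 (triangle) lie at the edge of their group for several genes, and mouse 9 stands far above the other GFP mice for Gdf15.

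Enho, at chr4:41638144-41640302 (GRCm38.p6, protein-coding), was lower in the SNORA73 group in both RNAs. In total RNA the GFP mice 1, 2, 3, 8 and 9 had 36.8, 32.0, 30.3, 24.2 and 14.2 CPM. The SNORA73 mice 4, 6, 10, 11 and 12 had 19.8, 13.1, 17.1, 20.3 and 15.98 CPM. Mouse 9 was the only GFP mouse within the SNORA73 range, and the other 4 were above it. In polysome RNA the GFP mice, in the same order, had 53.5, 63.6, 59.9, 47.3 and 16.02 CPM. The SNORA73 mice had 27.4, 13.4, 40.2, 28.6 and 20.6 CPM, with mouse 10 highest. The log2 fold change was −0.68 (SE 0.22) in total RNA and −0.89 (SE 0.34) in polysome RNA, a level 0.626-fold and 0.540-fold that of the GFP group. Without mice 9 and 10 it was −0.84 (SE 0.16) and −1.32 (SE 0.22), and the groups no longer overlapped in either RNA. Groups without overlap were then found for 7.53% of all genes in total RNA and 8.51% in polysome RNA. In liver tissue, fewer cells of a type and less RNA per cell cannot be told apart.

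The summed level of the sinusoidal endothelial markers was higher in the SNORA73 group, opposite to Enho, although 1 of 6 markers passed in total RNA. None of the 6 passed in polysome RNA. All 6 were above 3 counts in every library. Their summed level in total RNA was 90.2 to 109 CPM in the GFP group, with mouse 9 highest, and 107 to 120 CPM in the SNORA73 group. In polysome RNA it was 82.2 to 99.2 CPM against 104 to 112 CPM, without overlap. Among single genes 3.23% had groups without overlap there. Stab2, a scavenger receptor of these cells, rose with the SNORA73 LNA in total RNA by a log2 fold change of 1.06 (SE 0.15, edgeR FDR 0.0497). In polysome RNA its log2 fold change was 1.01 (SE 0.21, edgeR FDR 0.0857). The part of these cells in the Enho difference was not tested. Of the other marker lists, 0 of 6 hepatocyte, 0 of 6 Kupffer cell, 0 of 6 stellate cell, 0 of 3 cholangiocyte and 0 of 2 lymphocyte genes tested passed in total RNA.

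The annotated span of Enho overlaps that of Dnaic1 (chr4:41569647-41638158), a dynein component of motile cilia, over 15 bp (chr4:41638144-41638158). The reads were reverse-stranded, but the sources used here do not give whether kallisto was run with a strand option, so reads in the overlap cannot be assigned with certainty. Dnaic1 had 1.60% to 17.8% as many counts as Enho in a library. In total RNA its level was 2.13 to 3.53 CPM in the GFP mice apart from mouse 9, at 0.399 CPM. It was 0.210 to 1.34 CPM in the SNORA73 mice apart from mouse 10, at 3.04 CPM. Mice 9 and 10 thus each lay within the range of the opposite group in total RNA. In polysome RNA mouse 9, at 0.662 CPM, again lay within the SNORA73 range, while mouse 10, at 3.21 CPM, lay just below the GFP mice other than mouse 9, at 3.39 to 4.87 CPM. The log2 fold change of Dnaic1 was −0.92 (SE 0.59, edgeR FDR 0.727) in total RNA and −1.29 (SE 0.51, edgeR FDR 0.298) in polysome RNA. With both mice left out it was −1.78 (SE 0.39, edgeR FDR 0.0772) and −2.15 (SE 0.27, edgeR FDR 0.00977). With the counts of both genes summed, Enho had a log2 fold change of −0.69 (total RNA) and −0.91 (polysome RNA), near its own.

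**Figure D2:**
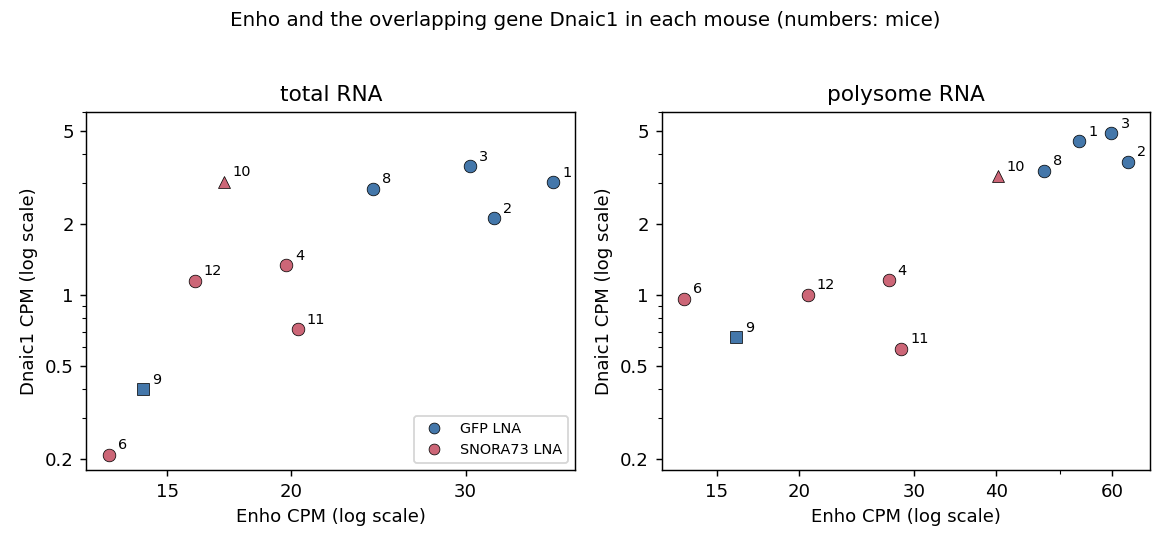
Level of Enho (horizontal axis) against Dnaic1 (vertical axis) in CPM, both on log scales, in total RNA (left) and polysome RNA (right), with 1 point per mouse. Mouse 9 of the GFP group sits at 0.399 CPM of Dnaic1 in total RNA, among the SNORA73 mice, while mouse 10 of the SNORA73 group sits at 3.04 CPM, among the GFP mice.

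Of 10784 genes above 1 CPM in every total RNA library, those whose log2 level over the 10 libraries followed Enho most closely were Gm44805 (Pearson's r = 0.97), Tet2 (r = 0.94), Clint1 (r = 0.94), Nme7 (r = 0.94) and Gclc (r = 0.91). Tet2 oxidises methylated cytosine and Gclc is the catalytic subunit of the enzyme that begins glutathione synthesis. These libraries share the LNA groups that Enho was chosen on, and the correlations are descriptive. The 5 genes had log2 fold changes of −0.56 (Gm44805), −0.39 (Tet2), −0.39 (Clint1), −0.51 (Nme7) and −0.55 (Gclc) between the LNA groups in total RNA. With mice 9 and 10 left out these were −0.73 (Gm44805), −0.54 (Tet2), −0.53 (Clint1), −0.68 (Nme7) and −0.62 (Gclc). A fall in genes chosen for following Enho comes largely from that choice, so these values too are a description with no test. In mouse 9 Gclc had 169 CPM, the lowest of the GFP mice, which reached 296 CPM. Among transcription factors known at the Enho promoter or in its circadian control, 0 of 7 passed in either RNA. The largest differences were those of Nr1h3, which encodes the oxysterol receptor LXRα, at 0.30 (SE 0.09, edgeR FDR 0.378) in total RNA and 0.26 (SE 0.12, edgeR FDR 0.388) in polysome RNA. The list's median log2 fold change was 0.07 in total and 0.18 in polysome RNA, against 0.01 and −0.01 over all genes.

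Igfbp1 (chr11:7197787-7202546) had the most negative log2 fold change after Gdf15, and it did not pass the test across all genes. In total RNA the GFP mice 1, 2, 3, 8 and 9 had 72.0, 45.5, 140, 149 and 114 CPM. The SNORA73 mice 4, 6, 10, 11 and 12 had 27.9, 101.5, 31.7, 61.8 and 19.8 CPM. SNORA73 mice 4, 10 and 12 were below every GFP mouse and mice 6 and 11 were within the GFP range. The log2 fold change was −1.10 (SE 0.44, 95% interval −2.11 to −0.09, edgeR FDR 0.505) in total RNA and −1.16 (SE 0.42, 95% interval −2.12 to −0.20, edgeR FDR 0.269) in polysome RNA. Leaving out 1 mouse at a time gave −1.56 to −0.90 in total RNA and −1.67 to −0.97 in polysome RNA. The biological coefficient of variation of Igfbp1 in total RNA, 0.472, exceeded that of 97.2% of genes. Its promoter is shown because the insulin-responsive site of this gene is a textbook case and its level spanned 7.50-fold between mice in total RNA. RefSeq's window of 250 bases before the start (chr11:7197537-7197786, GRCm38.p6, plus strand) is given with CAAAACA, the core of the insulin response element, in capitals.
Igfbp1: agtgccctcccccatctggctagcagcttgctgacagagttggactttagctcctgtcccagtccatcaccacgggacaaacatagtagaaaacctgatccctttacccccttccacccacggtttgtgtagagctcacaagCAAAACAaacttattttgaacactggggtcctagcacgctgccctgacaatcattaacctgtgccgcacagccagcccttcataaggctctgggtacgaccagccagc
The match began 108 bases before the start, and 5.56% of all 32851 RefSeq promoter windows of this length hold CAAAACA on either strand.

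Angptl8 (chr9:21835510-21837347), which encodes a feeding-induced inhibitor of lipoprotein lipase, was lower in total RNA in 4 of 5 GFP mice than in any SNORA73 mouse. In total RNA the GFP mice 1, 2, 3, 8 and 9 had 10.4, 11.7, 8.27, 8.71 and 33.8 CPM. The SNORA73 mice 4, 6, 10, 11 and 12 had 16.4, 15.1, 16.5, 15.9 and 47.9 CPM. Mice 9 and 12 stood well above the rest of their groups, in polysome RNA too, at 58.9 and 76.2 CPM. The other GFP mice had 9.66 to 18.1 CPM in polysome RNA and the other SNORA73 mice 16.8 to 24.7 CPM, so there these mice overlapped. The log2 fold change was 0.62 (SE 0.44, edgeR FDR 0.756) in total RNA and 0.47 (SE 0.53, edgeR FDR 0.747) in polysome RNA. It was 0.13 without mouse 12 and 1.19 without mouse 9 in total RNA, and in polysome RNA −0.18 and 1.22. Without mice 9 and 10 it was 1.29 (SE 0.34, edgeR FDR 0.145) in total RNA and 1.29 (SE 0.46, edgeR FDR 0.255) in polysome RNA. With mice 9 and 10 left out the groups did not overlap in total RNA, and neither did those of 7.53% of all genes. Mouse 9 was the only GFP mouse within the SNORA73 range there, so this separation rests on leaving it out. The promoters of Angptl8 (chr9:21835260-21835509, plus strand) and Fgf21 (chr7:45615491-45615740, minus strand, both GRCm38.p6) are shown together because they share a motif. In capitals are TGATGNAA, a composite C/EBP and ATF site, which in Fgf21 lies on the opposite strand, and in Fgf21 also an E-box (CACGTG). The third motif in capitals in Fgf21 is the TATA box, spelled TATAAA.
Angptl8: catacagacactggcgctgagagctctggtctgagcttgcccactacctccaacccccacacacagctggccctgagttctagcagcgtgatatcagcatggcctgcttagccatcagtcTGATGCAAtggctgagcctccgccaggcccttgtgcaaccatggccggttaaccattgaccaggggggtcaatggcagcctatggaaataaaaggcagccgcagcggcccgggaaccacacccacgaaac
Fgf21: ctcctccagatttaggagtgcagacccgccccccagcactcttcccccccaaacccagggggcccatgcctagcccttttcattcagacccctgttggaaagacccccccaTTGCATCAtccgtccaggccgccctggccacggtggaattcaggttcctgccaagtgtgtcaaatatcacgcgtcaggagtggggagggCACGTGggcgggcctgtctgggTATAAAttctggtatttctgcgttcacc
The composite site was found in 3.45% of all windows, the E-box in 6.02% and the TATA box in 12.4%. A nuclear receptor motif, AGGTCA, that neither window holds was found in 14.0%. Both strands were searched. Windows were found for 7 of the 9 members, and a match is only a run of letters.

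Genes that insulin and feeding raise or that fasting raises were read as a frame for Igfbp1 and Angptl8. Of 8 fasting-induced genes 0 passed between the LNA groups in either RNA, with a median log2 fold change of −0.04 in total and −0.14 in polysome RNA. The largest were Cyp4a14, a PPARα target, at −1.18 (SE 0.81, edgeR FDR 0.743) and Pdk4, which restrains glucose oxidation, at −0.81 (SE 0.37, edgeR FDR 0.579), both in total RNA. Of 7 feeding-induced genes tested 0 passed, with medians of −0.27 and −0.35. Mouse 9 had the highest total RNA level of Fasn (fatty acid synthase, 273 CPM against 47.2 to 112 CPM in the other GFP mice) and of Thrsp (420 CPM against 32.6 to 139 CPM). Its mean log2 CPM over the feeding-induced list was 7.08, against 5.46 to 6.65 in the other mice. Srebf1 of the same list was not raised there, at 39.7 CPM against 31.3 to 49.6 CPM in the other GFP mice. Mouse 12, highest for Angptl8, had a list mean of 6.12 and 73.6 CPM of Fasn. Its Thrsp was at 158 CPM, below that of mouse 6 (200 CPM) in its group. Its Srebf1, at 54.8 CPM, was the highest of all mice. Without mice 9 and 10 the median of the feeding-induced list in total RNA was 0.21, of the opposite sign. The part of the fed state of single mice in the values of Angptl8 and Igfbp1 was not tested.

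**Figure D3:**
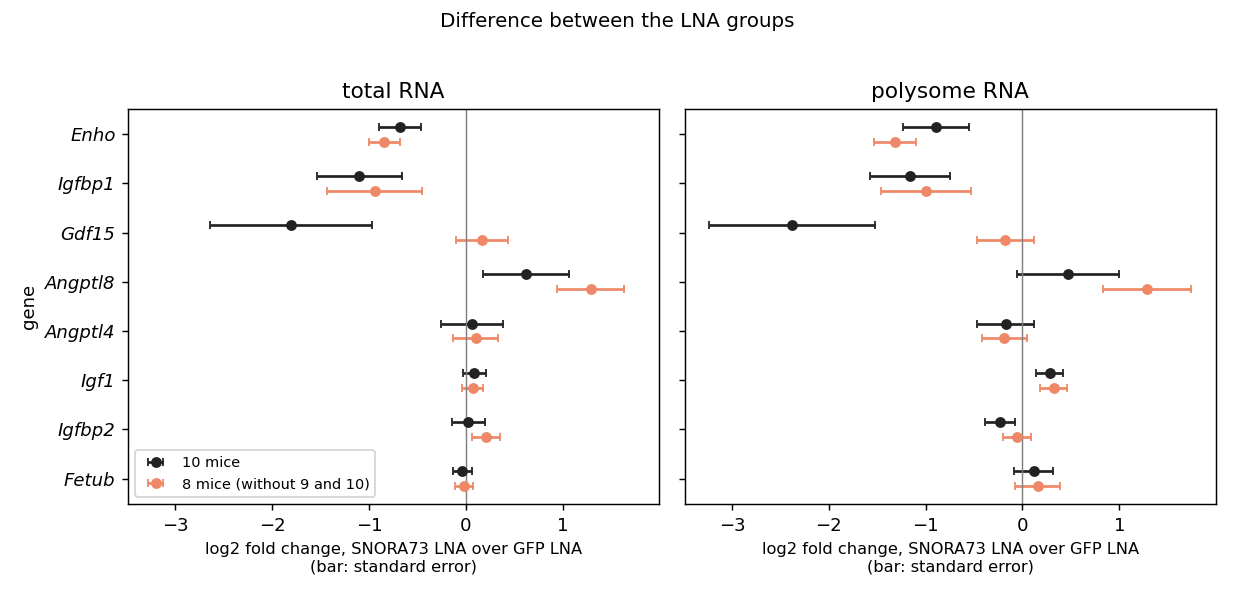
Log2 fold change of the SNORA73 LNA over the GFP LNA (horizontal axis, bars are standard errors) for 8 hormone genes in total RNA (left) and polysome RNA (right), with all 10 mice (black) and without mice 9 and 10 (orange). Gdf15 moves from −1.80 to 0.17 in total RNA, whereas Igf1, Igfbp2 and Fetub lie between −0.23 and 0.32 in both panels.

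Gdf15 (chr8:70629393-70632470), a stress-induced hormone that reduces appetite, depended on a single animal. In total RNA mouse 9 had 30.2 CPM, and the other GFP mice 1, 2, 3 and 8 had 1.35, 2.95, 1.69 and 1.73 CPM. The SNORA73 mice 4, 6, 10, 11 and 12 had 1.77, 1.89, 2.07, 2.05 and 2.96 CPM, and mouse 12 was level with GFP mouse 2. In polysome RNA mouse 9 had 50.8 CPM and the other 9 mice 1.68 to 3.92 CPM. The log2 fold change was −1.80 (SE 0.83, edgeR FDR 0.579) in total RNA and −2.38 (SE 0.86, edgeR FDR 0.272) in polysome RNA, and without mouse 9 it was 0.15 and −0.18. Atf3, a stress-induced transcription factor known to act on Gdf15, had 11.9 CPM in the total RNA of mouse 9 and 0.256 to 2.13 CPM in that of the other mice. Ddit3 of the same list was at 8.05 CPM in mouse 9 against 3.43 to 5.64 CPM, but Atf4 was at 105 CPM against 72.8 to 104 CPM. The part of a stress response in the Gdf15 level of mouse 9 was not tested. Of 6 stress transcription factors upstream of Fgf21 and Gdf15, 0 passed between the LNA groups in either RNA, with medians of −0.10 in total and −0.12 in polysome RNA.

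Fgf21 (chr7:45613890-45615490), the fasting and stress hormone that acts through Fgfr1 and Klb, was near the limit of detection. It had 1 to 43 counts in total RNA and 1 to 40 in polysome RNA, too few for the filter on low counts in either comparison of the LNA groups. In total RNA the GFP mice 1, 2, 3, 8 and 9 had 1.29, 0.297, 0.183, 0.247 and 0.508 CPM, and the SNORA73 mice 4, 6, 10, 11 and 12 had 0.107, 0.0350, 0.304, 0.358 and 0.0721 CPM. The groups overlapped, and mice 4, 6 and 12 were below 3 counts. In polysome RNA the GFP mice had 0.208 to 1.37 CPM and the SNORA73 mice 0.0539 to 0.387 CPM. Of the 5 receptor genes (Fgfr1 to Fgfr4 and Klb) 0 passed. The largest difference in total RNA was that of Fgfr3, at 0.35 (SE 0.13, edgeR FDR 0.457), and in polysome RNA that of Fgfr1, at −0.42 (SE 0.25, edgeR FDR 0.495). The list's median log2 fold change was 0.08 in total and −0.21 in polysome RNA.

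Angptl4 (chr17:33774900-33781575), an inhibitor of lipoprotein lipase induced by fasting, spanned 25.5 to 96.1 CPM in total RNA. Both ends lay in the SNORA73 group, at mice 10 and 6, and the GFP mice lay between, at 30.4 to 82.0 CPM. Its log2 fold change was 0.07 (95% interval −0.68 to 0.81, edgeR FDR 0.980) in total RNA and −0.17 (95% interval −0.86 to 0.51, edgeR FDR 0.841) in polysome RNA. Of 7 genes of the lipoprotein lipase axis 0 passed, with medians of 0.00 in both RNAs. Lpl, the enzyme itself, had the largest difference, at −0.42 (SE 0.24, edgeR FDR 0.690) in total RNA and −0.21 (SE 0.25, edgeR FDR 0.763) in polysome RNA.

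Igf1 (chr10:87858265-87937047), Igfbp2 (chr1:72824480-72852474) and Fetub (chr16:22918382-22939768) varied least between mice in total RNA. Igf1 had 510 to 718 CPM in GFP total RNA and 575 to 780 CPM in SNORA73 total RNA, and its log2 fold change was 0.09 (95% interval −0.19 to 0.36, edgeR FDR 0.887). In polysome RNA it had 404 to 579 CPM and 495 to 699 CPM, a log2 fold change of 0.28 (95% interval −0.03 to 0.59, edgeR FDR 0.391). Igfbp2, which encodes another binding protein of insulin-like growth factors, had 236 to 381 CPM against 219 to 383 CPM in total RNA, a log2 fold change of 0.02 (95% interval −0.37 to 0.42, edgeR FDR 0.991). In polysome RNA its log2 fold change was −0.23 (95% interval −0.60 to 0.13, edgeR FDR 0.558). Fetub, an inhibitor of the protease ovastacin, had 375 to 467 CPM against 348 to 428 CPM in total RNA, a log2 fold change of −0.04 (95% interval −0.26 to 0.19, edgeR FDR 0.948). In polysome RNA its log2 fold change was 0.11 (95% interval −0.36 to 0.59, edgeR FDR 0.849), and its SNORA73 mice spread more widely there, from 358 to 806 CPM, than the GFP mice, from 415 to 519 CPM. In total RNA these intervals, from all 10 mice, leave room for a change of at most 0.42 on the log2 scale in any of the 3 genes. Without mice 9 and 10 the Igfbp2 interval in total RNA reached past that bound (0.21, 95% interval −0.14 to 0.56, edgeR FDR 0.616). The intervals of Igf1 (−0.20 to 0.34) and Fetub (−0.24 to 0.21) then stayed within it.

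The rest of the growth factor axis gave no call between the LNA groups. Of 9 tested IGF axis genes 0 passed in either RNA, with medians of 0.03 and 0.16. Igf1r, the receptor, had a log2 fold change of 0.33 (SE 0.20, edgeR FDR 0.714) in total RNA and 0.71 (SE 0.25, edgeR FDR 0.268) in polysome RNA. Of 7 growth hormone signalling genes 0 passed, with medians of −0.10 and −0.15. Socs2, a feedback inhibitor that growth hormone induces, differed most, at −1.05 (SE 0.45, edgeR FDR 0.527) in total RNA and −1.24 (SE 0.49, edgeR FDR 0.310) in polysome RNA. Its total RNA level was 7.60 to 70.8 CPM in the GFP mice and 11.7 to 26.9 CPM in the SNORA73 mice, so the groups overlapped. Among 18 other circulating liver factors 0 passed in either RNA, with a median of 0.08 in both. The largest differences in total RNA were Fst (follistatin, −1.26, SE 0.46, edgeR FDR 0.458), Fgl1 (0.98, SE 0.51, edgeR FDR 0.642) and Tsku (tsukushi, 0.91, SE 0.32, edgeR FDR 0.425). Mouse 10 held the highest Fgl1 level, 1449 CPM in total RNA against 172 to 319 CPM in the other mice. It also held the highest Tsku level, 56.3 CPM against 11.1 to 34.6 CPM, and GFP mice 8 and 9 lay within the SNORA73 range of Tsku.

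The ratio of polysome to total RNA sets a message's share of polysome RNA against its share of total RNA. It does not count the ribosomes on a message. The 2 RNAs were also purified by different steps, with heparinase treatment for polysome RNA only, and this cannot be told apart from ribosome loading. The ratio was independent of how Enho was chosen and was tested for all 9 members over both LNA groups. Enho, Igfbp2 and Fetub were higher in polysome RNA and Igf1 was lower, 4 of 9 members, where 55.5% of 13795 genes passed (28.5% higher, 26.9% lower). Total and polysome libraries came from the same mice, and with the mouse as a replicate block 8 of 9 members passed (6 higher, 2 lower), where 65.5% of genes did (33.2% higher, 32.4% lower). The share of members called was below that of all genes without the block and above it with the block. Fgf21 was the member that did not pass. With 8 mice there were 3 of 8 members at a background of 53.4% (26.8% higher, 26.6% lower), and with the block 5 of 8 at 59.7% (29.4% higher, 30.3% lower).

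Enho had the largest positive difference, a log2 fold change of 0.70 (SE 0.22, edgeR FDR 0.00995), or 0.63 (SE 0.10, edgeR FDR 8.2e-05) with the block. The log2 ratio was above 0 in all 10 mice. In the GFP mice 1, 2, 3, 8 and 9 it was 0.54, 0.99, 0.98, 0.97 and 0.18. In the SNORA73 mice 4, 6, 10, 11 and 12 it was 0.47, 0.03, 1.23, 0.50 and 0.37. Mice 6 and 9 were lowest and mouse 10 highest, and apart from mouse 10 the SNORA73 mice were below the GFP mice 1, 2, 3 and 8. The total RNA library of mouse 6 did not correlate best with its own polysome library, so its ratios for all members are less sure. The change in this ratio with the SNORA73 LNA was −0.21 (SE 0.44), and with the block −0.22 (SE 0.21), or −0.51 (SE 0.16) without mice 9 and 10, given with no test.

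Igfbp1 had the lowest mean ratio of the members. Its log2 ratio was below 0 in all 10 mice, from −0.78 to −0.40, although its total RNA level spanned 7.50-fold. Across mice the SD of the ratio was 0.13 log2 units, and that of its total RNA level was 1.03, which is 7.82 times as large. The mean difference was −0.58 (SE 0.33, edgeR FDR 0.143), and with the block −0.57 (SE 0.05, edgeR FDR 3.0e-07). Angptl8 likewise was above 0 in all 10 mice, from 0.10 to 0.80, with a difference of 0.55 (SE 0.38, edgeR FDR 0.230), or 0.45 (SE 0.07, edgeR FDR 7.7e-05) with the block. The SD of its ratio was 0.25 log2 units and that of its total RNA level 0.81.

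**Figure D4:**
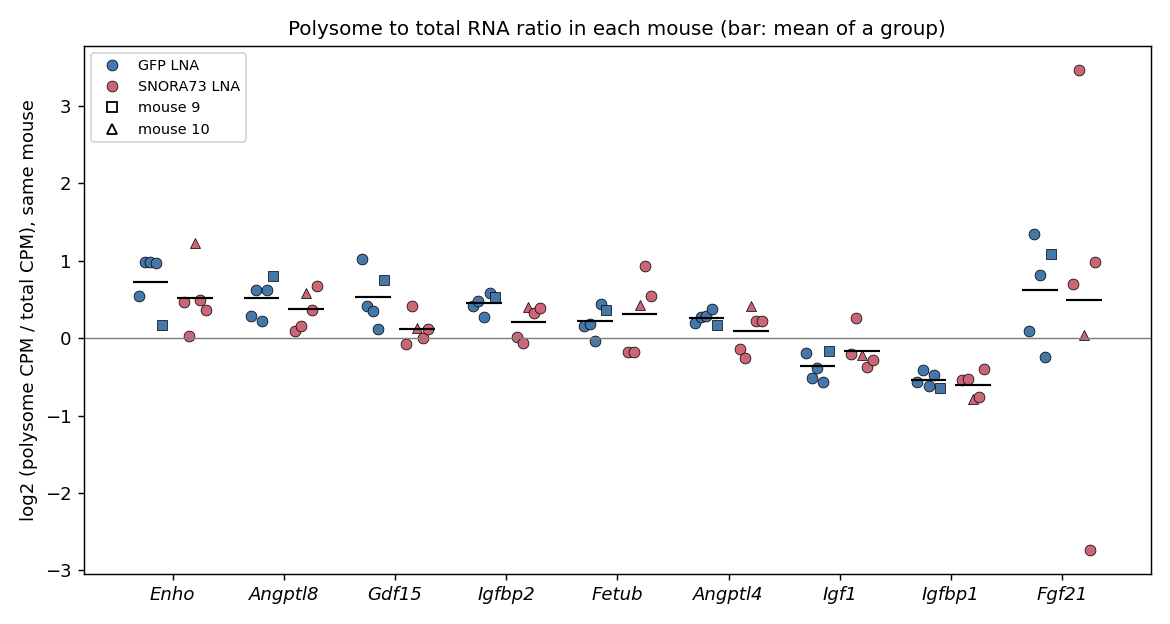
Log2 ratio of polysome to total RNA level in each mouse (vertical axis) for the 9 hormone genes, with the mean of each LNA group as a bar. Enho and Angptl8 are above 0 and Igfbp1 is below 0 in all 10 mice, while Fgf21, counted in few reads, ranges from −2.73 to 3.47.

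Igfbp2 had a difference of 0.33 (SE 0.12, edgeR FDR 0.0239), with a ratio above 0 in 9 of 10 mice, and it lost its call without mouse 8 (edgeR FDR 0.0566) or mouse 12 (edgeR FDR 0.0614) and under either other filter on low counts (edgeR FDR 0.0509 and 0.0581). Igf1 had −0.26 (SE 0.09, edgeR FDR 0.0148), with a ratio below 0 in all mice but SNORA73 mouse 6, and it lost its call with scaling to library totals (−0.23, edgeR FDR 0.0615). Fetub had 0.30 (SE 0.12, edgeR FDR 0.0347), with a ratio above 0 in 7 of 10 mice, and it lost its call without mice 9 and 10 (0.26, edgeR FDR 0.120), under either other filter, and without any 1 of mice 1, 2, 8, 9, 10, 11 and 12 (edgeR FDR 0.0501 to 0.0875). Gdf15 and Angptl4 passed only with the block, at 0.34 (SE 0.10, edgeR FDR 0.00746) and 0.17 (SE 0.06, edgeR FDR 0.0281). With mice 9 and 10 left out neither passed with the block (edgeR FDR 0.0907 and 0.133). Fgf21 had 0.49 (SE 0.48, edgeR FDR 0.411). It passed the filter over 20 libraries only through the GFP group, as no SNORA73 library exceeded 0.387 CPM. Its change of the ratio with the LNA is therefore no fair test. None of the 8 members besides Enho, Fgf21 counted among them, showed a change of the ratio with the SNORA73 LNA (lowest edgeR FDR 0.99992, and 0.627 with the block), at a background of 0.00725% of genes (1 of 13795). At an unadjusted p below 0.05 there were also 0 members, against 401 genes.

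The receptors and partners of these hormones were read in the same comparison, against the 55.5% of all genes called there (28.5% higher, 26.9% lower). Several of the list counts below are near those shares. Growth hormone signalling messages lay below 0 in 7 of 7 cases and 3 passed as lower. They were Ghr, the growth hormone receptor (−0.85, SE 0.09, edgeR FDR 1.1e-07), its kinase Jak2 (−1.36, SE 0.10, edgeR FDR 1.1e-09) and Stat5a (−0.51, SE 0.11, edgeR FDR 0.000798). Of 9 IGF axis genes 2 were higher and 4 lower. Igfals, which holds insulin-like growth factors in a ternary complex, was at 0.49 (SE 0.12, edgeR FDR 0.00158) and Igfbp6 at 0.76 (SE 0.29, edgeR FDR 0.0283). The lower genes were the receptors Igf1r (−0.71), Igf2r (−0.30) and Insr (−0.53) and the binding protein Igfbp3 (−0.67), with edgeR FDR 1.1e-05 to 0.0128. In the lipoprotein lipase axis all 7 genes passed, 4 higher (Gpihbp1 at 0.83, Lmf1 at 0.57, Lipc at 0.49 and Furin at 0.43) and 3 lower (Lpl at −1.02, Lipg at −0.57 and Pcsk6 at −0.37). Of 5 FGF receptor genes, Fgfr2 (−1.02) and Fgfr3 (−0.30) were lower. Fasting-induced genes lay below 0 in 7 of 8 cases and 5 passed as lower, among them Txnip (−0.91), Pdk4 (−0.79) and Pck1 (−0.55), which encodes a key enzyme of gluconeogenesis. The medians of these lists were −0.34 (growth hormone signalling), −0.17 (IGF axis), 0.43 (lipoprotein lipase axis), −0.21 (FGF receptors) and −0.64 (fasting-induced genes), against 0.02 over all genes.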

How the data were processed

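Per the labels, liver RNA of 10 mice (5 per LNA group) was sequenced as total and polysome RNA, in polyadenylated, 100 bp paired-end libraries. The authors kept reads of Phred quality 15 or more (fastp), discarded those mapping to rRNA (bowtie) and quantified the rest with kallisto 0.46.2 on Ensembl 102, followed by tximport. The deposited estimated counts per gene are not normalized (build GRCm38). The study used 4 mice per group after setting 1 unnamed sample aside in each. Reads compatible with overlapping genes are divided by kallisto, so such genes are uncertain.

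Here all counts were made whole by rounding. Of 53028 identifiers 51903 had a symbol. A gene was tested where its CPM exceeded 0.5 in 4 or more of the libraries fitted. Tests were edgeR's quasi-likelihood test (edgeR 4.0.16, R 4.3.3) with TMM scaling, and Benjamini-Hochberg adjustment ran over all genes tested. The 2 LNA groups were compared in each RNA separately. Polysome RNA was compared with total RNA, and the change of that ratio with the LNA tested, over all 20 libraries, without a block. CPM are scaled over the same 20 libraries. Each SE given is the absolute log2 fold change divided by the square root of the quasi-likelihood F statistic. For Enho between the LNA groups it is a description too. Intervals are at 95% and built on this SE, and 3 counts served as the detection floor. Both leave technical causes uncovered. The number of a mouse links its total and polysome library. Over 10067 genes, the deviations of the linked libraries from their group means correlated at 0.176 to 0.806, and 9 of 10 mice correlated best with themselves. The exception was mouse 6, at 0.176, whose link is the least sure and which enters every fit with the block on all mice. The fits were checked on simulated counts with the same spread for all genes and no effect of the mouse. That check does not cover genes as variable as Gdf15, nor the pairing of libraries by mouse.

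Alternatives were limma-voom (limma 3.58.1), DESeq2 1.42.0, edgeR with the size factors of DESeq2, scaling to library totals only, a filter of 1 count, a filter of CPM over 1 in all libraries, leaving out mice 9 and 10 or each mouse in turn, 1 fit of all libraries, the mouse as a replicate block, and the counts of Enho and Dnaic1 summed. The block without mice 9 and 10 and the block with library totals were added after seeing the data. The members, the gene lists (9 of pathways, 6 of cell types) and mice 9 and 10 were chosen with earlier results of these data known. Genes named are the 9 members, Dnaic1, listed genes past the threshold or else up to 3 with the largest log2 fold change, and the 5 genes most like Enho in total RNA. Some listed genes past the threshold between polysome and total RNA are given as counts. Igf2 and Pnpla3 were under the filter. Promoter windows are RefSeq's, of GRCm38.p6. Levels are not compared between genes, since CPM do not account for length.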

Additional observations from a re-analysis of the deposited data

Results flagged for a closer look

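Each member was examined in each of the 4 groups of 5 libraries (36 sets) for a sample whose gap to its nearest neighbour took up most of the group's range (Dixon's test). It marked 7 sets, all of Gdf15 or Angptl8, and chance marks about 1 in 20. Total and polysome libraries of a mouse are not independent, so the sets of 1 gene count partly double. For Gdf15, GFP mouse 9 had 30.2 CPM in total RNA against 1.35 to 2.95 CPM in the others and 50.8 CPM in polysome RNA against 1.88 to 3.92 CPM. SNORA73 mouse 12 had 2.96 CPM of Gdf15 in total RNA against 1.77 to 2.07 CPM. For Angptl8, GFP mouse 9 had 33.8 CPM in total RNA against 8.27 to 11.7 CPM and 58.9 CPM in polysome RNA against 9.66 to 18.1 CPM. SNORA73 mouse 12 had 47.9 CPM of Angptl8 in total RNA against 15.1 to 16.5 CPM and 76.2 CPM in polysome RNA against 16.8 to 24.7 CPM.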

How the results depend on the processing

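Between the LNA groups and for the change of the polysome ratio, 0 members passed under every alternative run, although DESeq2 gave no adjusted p for Gdf15 in these 3 comparisons or for Angptl8 in polysome RNA. For polysome against total RNA the count of 4 members became 2 without a filter beyond 1 count, 2 with a CPM above 1 in every library, 8 with the replicate block and 8 with the block and library totals, and 2 to 4 with each mouse left out (2 without mouse 8 or 12). Over all genes the 4 calls in total RNA became 68 with DESeq2, 13 without a filter, 97 without mice 9 and 10, 2 with library totals or the stricter filter and 1 to 59 with each mouse left out (59 without mouse 9). The 2 calls in polysome RNA became 282 with DESeq2, 317 in 1 fit of all libraries, 72 without a filter, 31 with the stricter filter, 31 without mice 9 and 10, 0 with library totals, and 0 to 17 with each mouse left out (17 without mouse 9). The single call of the change in ratio became 7 with DESeq2 and 0 with limma-voom, the stricter filter, or without mice 9 and 10 (with or without the replicate block). Library totals without TMM moved the median of all genes to −0.14 in total and −0.17 in polysome RNA. With them the log2 fold changes in total RNA of Angptl4 (−0.059), Igf1 (−0.056) and Igfbp2 (−0.11), and of Fetub in polysome RNA (−0.065), changed sign, all lying above that median. Angptl4 was −0.0058 with limma-voom, and without mice 9 and 10 Gdf15 was 0.17 in total RNA and the change in ratio of Angptl8 was 0.0030. With each mouse left out the sign also changed in total RNA for Gdf15 (−2.07 to 0.15), Angptl4 (−0.19 to 0.25), Igfbp2 (−0.064 to 0.13) and Fetub (−0.076 to 0.0093), in polysome RNA for Angptl4 (−0.35 to 0.0067), Angptl8 (−0.18 to 1.22) and Fetub (−0.083 to 0.22), and in the change of ratio for Fgf21 (−0.78 to 0.52), Angptl8 (−0.32 to 0.0078) and Fetub (−0.042 to 0.27). None of these values passed. Enho kept a negative log2 fold change, −0.85 to −0.56 in total RNA and −1.32 to −0.72 in polysome RNA over 19 alternatives each. The causes were not tested. Depth limits Fgf21, which had at most 43 counts.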

Other observations

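Messages of other lists were also compared between polysome and total RNA over both LNA groups, where 55.5% of all genes passed (28.5% higher, 26.9% lower) and the counts are to be read against those shares. Of 18 circulating liver factors 8 were higher in polysome RNA, 1 was lower and 9 did not pass, with a median log2 fold change of 0.20 against 0.02 over all genes, and with the replicate block, where 65.5% of all genes passed, 10 were higher and 4 lower. Hamp, which encodes hepcidin, the hormone that limits iron export, was at 1.30 (SE 0.40, edgeR FDR 0.00972), Angptl6 at 0.70 (SE 0.17, edgeR FDR 0.00138) and Rbp4, the carrier of retinol, at 0.43 (SE 0.08, edgeR FDR 0.000173). Selenop, a selenium carrier whose translation reads stop codons as selenocysteine, was the lower gene, at −0.80 (SE 0.14, edgeR FDR 5.2e-05). Of 7 transcription factors of the Enho promoter 2 were higher and 3 lower, the highest being Nr1h3 at 0.72 (SE 0.07, edgeR FDR 4.3e-08) and the lowest Nr1d2, a repressor of the circadian clock, at −1.19 (SE 0.25, edgeR FDR 0.000364). Of 6 stress transcription factors 2 were higher, Creb3l3 at 0.39 (SE 0.09, edgeR FDR 0.00155) and Ppara at 0.44 (SE 0.18, edgeR FDR 0.0481). Of 7 feeding-induced genes 2 were lower, Elovl6 at −0.71 (SE 0.27, edgeR FDR 0.0323) and Me1 at −0.68 (SE 0.17, edgeR FDR 0.00231).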
